A study of Mus musculus with 12 samples.

Results

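The genes described here are 10 heat shock genes of the cytosol and the mitochondria: Hspa1a, Hspa1b, Hsph1, Dnajb1, Hspb1, Hspa8, Hsp90aa1, Hsp90ab1, Hspd1 and Hspe1. They were chosen by name, as chaperones outside the endoplasmic reticulum (ER) and targets of heat shock factors, and found by symbol. All 10 were among the 21960 genes listed for each tumor. RNA from whole mammary tumors of 12 mice was sequenced, with 3 tumors in each of 4 treatment groups, to ask how doxorubicin (DOX) and blockade of the checkpoint receptor PD-1 change the tumor transcriptome. All mice were C57BL/6 females carrying the polyoma middle T oncogene (PyMT) under the mouse mammary tumor virus promoter, which drives it mainly in mammary epithelium. Ages at sampling were not given in the sources used here.

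The IgG1 group received an isotype control antibody and the anti-PD-1 group the blocking antibody 4H2, both at 20 mg/kg for the first dose and 10 mg/kg later, from a tumor diameter of 0.6 cm. The DOX/IgG1 and DOX/anti-PD-1 groups received weekly doxorubicin, 5 mg/kg over 5 weeks, with each dose followed by 10 mg/kg of the antibody, from a diameter of 1 cm. Doxorubicin, the tumor size at the start and the antibody schedule therefore cannot be told apart in any comparison with the groups that had no doxorubicin. Levels are TPM, a measure of transcript abundance scaled to transcript length and to all transcripts of a library. Read counts were not analysed here, and how deeply each library was sequenced is unknown.

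Heat shock proteins are chaperones that bind unfolded proteins, keep them soluble and help them fold. In stressed cells heat shock factor 1, encoded by Hsf1, leaves its complexes with chaperones and forms trimers. These bind alternating repeats of the bases GAA and their reverse complement TTC in promoters. Some members are kept at high levels in unstressed cells, while others are strongly inducible, and tumor cells often hold raised levels of both kinds.

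The library of DOX/IgG1 replicate 1 stood apart from the rest. Across 16328 genes, its log2(TPM + 1) values had Pearson correlations of 0.8872 and 0.8861 with the other tumors of its group, against 0.943 between those 2. These correlations run across genes, which are not independent replicates. The header of its value column also holds the word "test", which no other header does. It was set apart for these measures of the whole library, but it also had the highest level of Hspa8, Hsp90ab1 and Hspd1 and the highest sum of the members of all 12 tumors. When it is left out, the doxorubicin differences of these genes must therefore fall. These ranks are of the TPM as deposited. Scaling by the median of ratios divided the TPM of IgG1 replicate 1 by 0.855 and those of DOX/IgG1 replicate 1 by 1.042. After scaling, IgG1 replicate 1 was above DOX/IgG1 replicate 1 for Hspa8, Hsp90ab1 and the sum. The members' values for doxorubicin over both antibodies are given with and without DOX/IgG1 replicate 1 as a description. The larger differences without it support nothing. DOX/IgG1 replicate 1 also had the most genes listed at 0, 8104 of 21960, against 6534 to 7730 in the other tumors. Markers of luminal mammary epithelium were present in every tumor, with Epcam between 418 and 954 TPM.

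Together the 10 genes made up 0.7% to 1.14% of the listed TPM. Their summed level was 6853, 7203 and 7594 TPM in the IgG1 tumors and 5896, 6606 and 6351 TPM in the anti-PD-1 tumors. It was 7969.5, 4908 and 5059.6 TPM in the DOX/IgG1 tumors and 5657, 5217 and 5101 TPM in the DOX/anti-PD-1 tumors. Thus 5 of the 6 doxorubicin-treated tumors lay below all tumors without doxorubicin. DOX/IgG1 replicate 1 lay above them all in these TPM, but not above IgG1 replicate 1 after scaling. Hspa8 and Hsp90ab1 were the largest parts of this sum.

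The mean level over the 12 tumors spanned a wide range among the members. Hspa8 was highest with 3039 ± 688 TPM (SD, n = 12), followed by Hsp90ab1 with 1846 ± 299 TPM and Hsp90aa1 with 899 ± 250.5 TPM. Hspd1 had 145 ± 35.5 TPM and Hspe1 84.6 ± 22.5 TPM. These 5 genes kept this order in every tumor. Below them, Hspe1 was above Hsph1 in 10 of 12 tumors. Hsph1 (62.2 ± 20.1 TPM), Hspa1b (50.9 ± 21.2 TPM) and Hspb1 (48.5 ± 18.6 TPM) did not differ beyond their spread. Hsph1 was above Hspa1b in 7 of 12 tumors and Hspa1b above Hspb1 in 5. Hspa1a (14.3 ± 5.14 TPM) and Dnajb1 (11.9 ± 3.34 TPM) were lowest and overlapped. All 10 genes reached 1 TPM in all 12 tumors, so each entered every test.

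**Figure D1:**
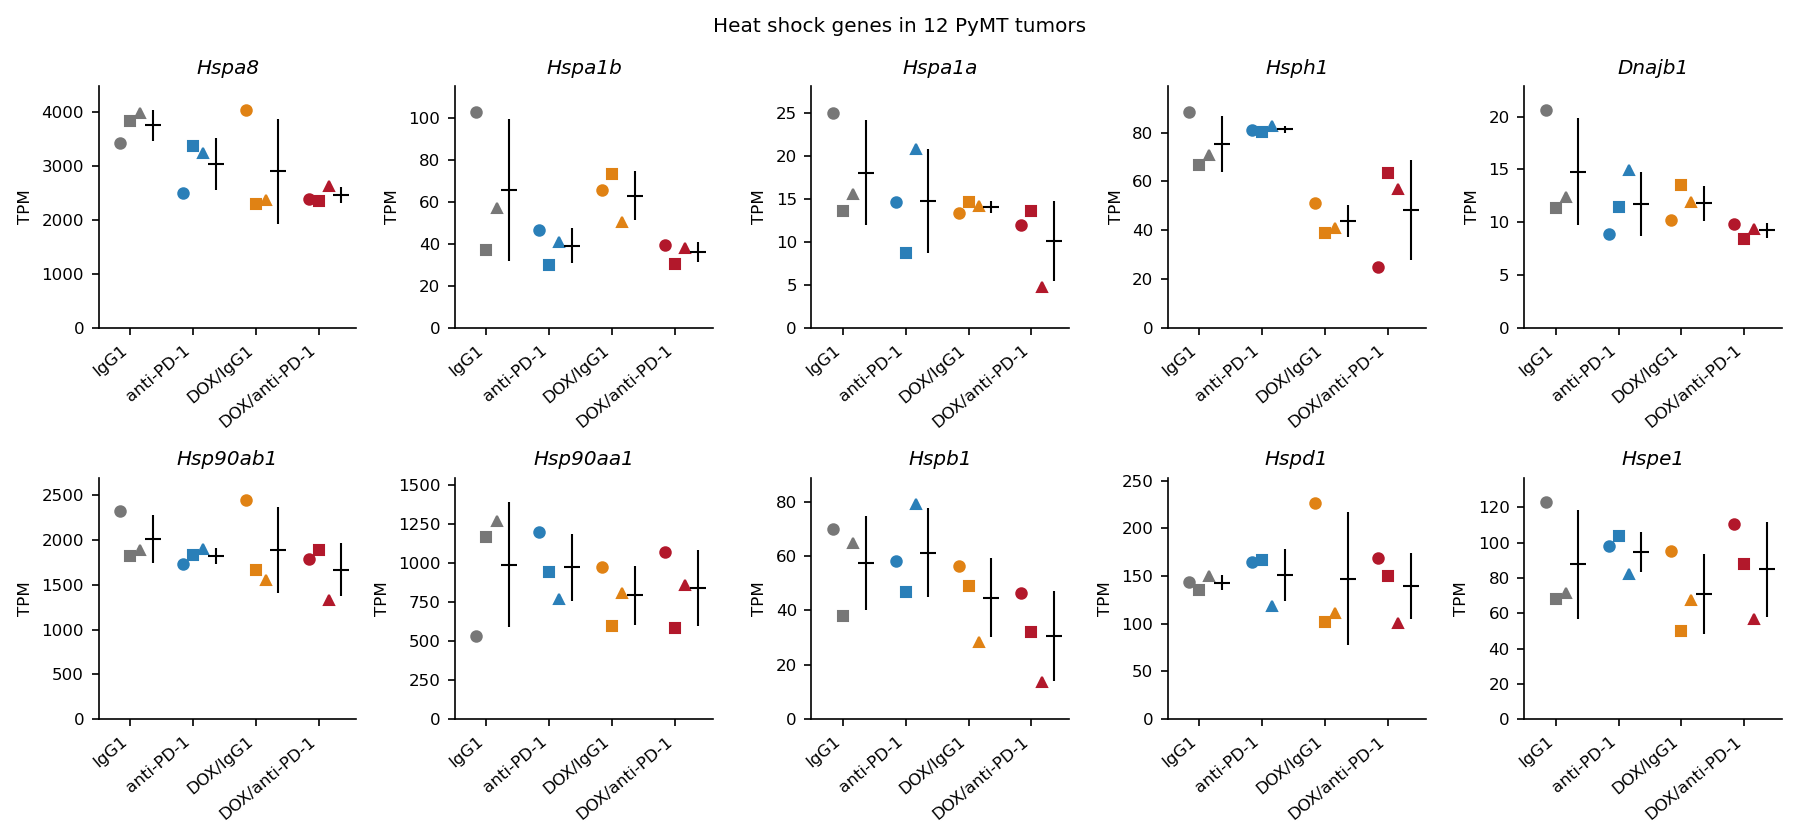
TPM of the 10 heat shock genes in each tumor (y axis, from 0, own scale per panel) by treatment group (x axis). Circles, squares and triangles are replicates 1, 2 and 3, and the black line is the group mean ± SD (n = 3). For Hsph1 all 6 tumors with doxorubicin (24.9 to 63.3 TPM) lie below all 6 without it (66.7 to 88.6 TPM).

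Several of these levels are uncertain because near-identical sequence elsewhere in the genome can take or give reads. Of the 75-base stretches in the longest coding transcript, 68.0% in Hspa8, 53.1% in Hsp90aa1 and 47.3% in Hspb1 occur in transcripts of another gene, all of them pseudogenes. For Hspd1 the share was 33.7%, again in pseudogenes, and for Hspe1 23.7%. For Hspa1a and Hspa1b it was 54.2% and 55.8%, mostly shared between this pair. Hsp90ab1 shared 0.7%, and Hsph1 and Dnajb1 shared 0.0%.

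Over both antibodies, the heat shock genes had lower mean log2 levels with doxorubicin, Hsph1 and Hspb1 most, but no member passed the limits of the test. Under IgG1 alone the largest differences were those of Hsph1 (-0.78) and Hspa8 (-0.42), with Hspb1 at -0.37. When 1 tumor was left out, Hspa8 ran from -0.68 to -0.28 and Hspb1 from -0.64 to -0.08. Hsp90aa1 (-0.25) reached -0.64 without IgG1 replicate 1, so the order after Hsph1 depends on single tumors. The members' median under IgG1 also rested in large part on 1 control tumor. Limma was fitted to log2(TPM + 1) of all genes with 1 TPM or more in at least 3 tumors, and a gene was called at an adjusted p below 0.1 with an absolute log2 fold change above 1. In DOX/IgG1 against IgG1, 0 of 10 members were called, against 0.036% of 13874 genes tested. In DOX/anti-PD-1 against anti-PD-1 it was 0 of 10, against 0.0% of 13736 genes. With both antibodies in 1 fit, 6 tumors against 6, it was 0 of 10 against 0.0204% of 14735 genes. At an unadjusted p below 0.05 limma gave 1, 2 and 2 members in these 3 comparisons, where 7.73%, 8.63% and 11.98% of all genes reached it.

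The log2 fold changes of the members had medians of -0.28, -0.26 and -0.26 in these 3 comparisons, and those of all genes 0.12, 0.11 and 0.12. Negative values were found for 9, 10 and 10 of 10 members, and the share of all genes below 0 was 36.7% over both antibodies. These counts change with single tumors. The exception, Hspa1b in DOX/IgG1 against IgG1 (0.04), ran from -0.3 to 0.43 when tumors were left out in turn, and Hsp90ab1 (to 0.01) and Hspd1 (to 0.15) also took positive values there. In DOX/anti-PD-1 against anti-PD-1 the same held for Hspa1b, Hsp90aa1, Hsp90ab1, Hspd1 and Hspe1, with highest values of 0.03, 0.01, 0.01, 0.09 and 0.06. Over both antibodies Hspa1b reached 0.13 and Hspd1 0.01. Scaling by the median of ratios took the exception to -0.06, but it shifts all genes nearly alike. It moved the median of all genes by 0.1, 0.11 and 0.1, and the members' medians then were -0.38, -0.37 and -0.37. The combined comparison uses the tumors of the other 2 again and is no separate evidence. In bulk tumors, fewer cells that hold an RNA and less of it per cell cannot be told apart.

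**Figure D2:**
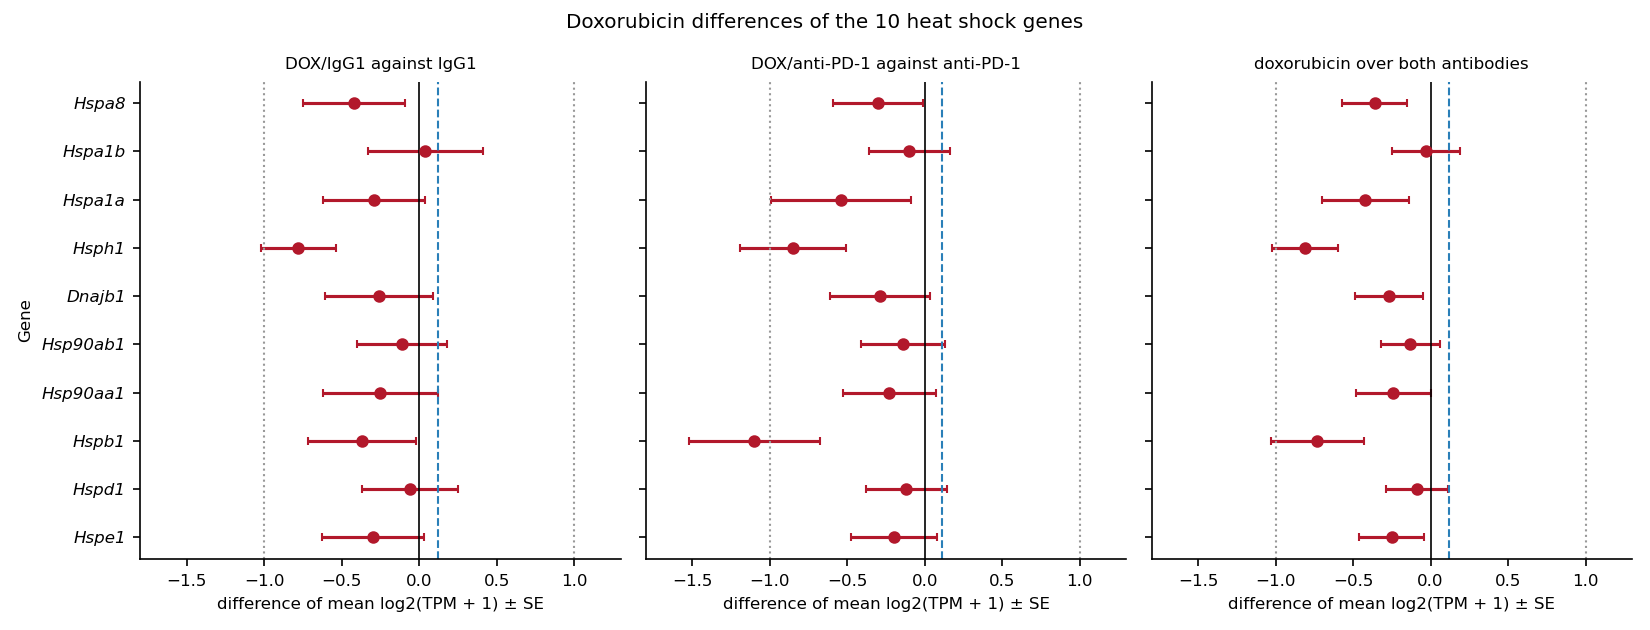
Difference of mean log2(TPM + 1) with its SE (x axis) for each of the 10 heat shock genes (y axis), for doxorubicin against none under IgG1 (left), under anti-PD-1 (middle) and over both (right). The dashed line is the median of all genes tested and the dotted lines are the fold change limits of -1 and 1. Over both antibodies the points run from -0.81 for Hsph1 to -0.03 for Hspa1b, all below the dashed line at 0.12.

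The median of the members in DOX/IgG1 against IgG1 changed with the tumor left out. It was -0.05 without IgG1 replicate 1, -0.41 without IgG1 replicate 2 and -0.3 without IgG1 replicate 3. Leaving out DOX/IgG1 replicates 1, 2 and 3 in turn gave -0.41, -0.18 and -0.27. The median was thus near 0 without the control tumor that was highest for several members. In DOX/anti-PD-1 against anti-PD-1 the lowest and highest medians were -0.37 (without DOX/anti-PD-1 replicate 1) and -0.21 (without DOX/anti-PD-1 replicate 3). Over both antibodies they were -0.34 (without DOX/anti-PD-1 replicate 1) and -0.22 (without DOX/IgG1 replicate 2), with -0.33 when DOX/IgG1 replicate 1 was left out. Without DOX/IgG1 replicate 1, members called were still 0 of 10 under IgG1 and over both antibodies, while genes called went from 5 to 113 (0.827%) and from 3 to 211 (1.44%).

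Hsph1, an HSP110 protein that releases ADP from HSP70 and keeps unfolded proteins soluble, lies on chromosome 5 (GRCm38, 149614287 to 149636376, minus strand). Its level was 88.6, 66.7 and 70.9 TPM in the IgG1 tumors and 51.1, 38.7 and 41.0 TPM in the DOX/IgG1 tumors. It was 81.2, 80.1 and 82.8 TPM in the anti-PD-1 tumors and 24.9, 63.3 and 56.7 TPM in the DOX/anti-PD-1 tumors. Every tumor with doxorubicin was thus below every tumor without it, and the lowest was a tumor that had received both agents. Groups that do not overlap in this direction were found for 4.64% of genes in DOX/IgG1 against IgG1, for 3.84% in DOX/anti-PD-1 against anti-PD-1 and for 0.122% (18 of 14735) over both antibodies. In each of these 3 comparisons Hsph1 was among them, as 1 of 1, 1 of 2 and 1 of 1 members. The share of genes that were higher without overlap was 9.31%, 11.1% and 0.597%, with 0 members.

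The log2 fold change of Hsph1 over both antibodies was -0.81 ± 0.21 (SE, 6 tumors against 6), or 0.57 of the level without doxorubicin on the TPM + 1 scale. The exact permutation test, two-sided and within each antibody, gave p = 0.005, the smallest it can give. The adjusted limma p was 0.206, which fails the limit, and by p the gene stood at 98 of 14735. The differences under IgG1 (-0.78 ± 0.24, adjusted p = 0.505) and under anti-PD-1 (-0.85 ± 0.34, adjusted p = 0.54) gave an interaction of -0.07 ± 0.43 (adjusted p = 0.996). Leaving out 1 tumor moved the value under IgG1 between -0.89 and -0.66. Under anti-PD-1 it moved from -0.44 without DOX/anti-PD-1 replicate 1, the lowest tumor, to -1.09 without DOX/anti-PD-1 replicate 2. Over both antibodies the range was -0.92 to -0.62. With 3 tumors against 3 the exact test gave p = 0.1 in both, its smallest value. Without DOX/IgG1 replicate 1 the value over both antibodies was -0.87 ± 0.22 with an adjusted p of 0.0864, and adjusted p ran from 0.0864 to 0.327 over all alternatives.

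At 0.0864 the adjusted p of Hsph1 is under the limit, but its fold change is not large enough for a call. Once this value had been seen, the limit on the fold change was also dropped for that set of tumors. Hsph1 then was the 1 member of 10 that passed, beside 297 of 14626 genes (2.03%). This tumor had the highest Hsph1 level of its group. Each choice was planned alone, but their joint use was added after the result was known, so this is a description and not a call.

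The bases before the start of Hsph1 are shown because its values part the groups, and because they hold a match to a heat shock element. The 240 bases, from RefSeq (GRCm38.p6, minus strand, chr5:149636347-149636586), end 10 bases before the RefSeq start, and capitals mark the match. By GENCODE the gene starts earlier, and the last 30 of these bases, with the whole match, lie in an exon of Hsph1.
Hsph1: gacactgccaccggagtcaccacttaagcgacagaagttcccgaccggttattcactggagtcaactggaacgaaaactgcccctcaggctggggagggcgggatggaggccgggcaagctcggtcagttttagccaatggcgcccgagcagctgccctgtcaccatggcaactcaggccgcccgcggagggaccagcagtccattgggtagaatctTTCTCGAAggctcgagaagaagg

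Hspa8, the constitutive HSP70 of the cytosol (chromosome 9, 40800984 to 40810087, plus strand), had 3428, 3845 and 3995 TPM in the IgG1 tumors and 2495, 3378 and 3245 TPM in the anti-PD-1 tumors. In the DOX/IgG1 tumors it had 4034, 2305 and 2366 TPM and in the DOX/anti-PD-1 tumors 2389, 2358 and 2627 TPM. The tumors with doxorubicin were low apart from DOX/IgG1 replicate 1, which was the highest of all in these TPM, but not after scaling. Over both antibodies the log2 fold change was -0.36 ± 0.21 (adjusted limma p = 0.525), and the exact permutation p was 0.055. It was -0.47 ± 0.2 with an adjusted p of 0.284 when that tumor was left out, and -0.29 at the other end, without DOX/IgG1 replicate 2. The anti-PD-1 tumors were all below the IgG1 tumors, as were 6.24% of all genes, and 3.64% of all genes were higher without overlap.

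Hspa1a and Hspa1b encode the inducible HSP70 and lie 9951 bases apart on chromosome 17 (34969190 to 34972156 and 34956436 to 34959238, both minus strand). Hspa1b had 103, 37.1 and 56.9 TPM in the IgG1 tumors and 46.5, 29.9 and 40.8 TPM in the anti-PD-1 tumors. It had 65.5, 73.1 and 50.2 TPM in the DOX/IgG1 tumors and 39.3, 30.4 and 37.9 TPM in the DOX/anti-PD-1 tumors. The tumors with anti-PD-1 were low in both arms, and the groups overlapped without doxorubicin but not with it. Hspa1a ran from 4.76 TPM in DOX/anti-PD-1 replicate 3 to 25.1 TPM in IgG1 replicate 1, and all its groups overlapped.

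Doxorubicin over both antibodies gave -0.03 ± 0.22 for Hspa1b and -0.42 ± 0.28 for Hspa1a, with adjusted limma p of 0.975 and 0.586. Since reads can move between the pair, their sum was also tested. Hspa1a plus Hspa1b had a mean of 61.5 TPM with doxorubicin and 68.8 TPM without it, a log2 fold change of -0.11 ± 0.21 (adjusted p = 0.872). With DOX/IgG1 replicate 1 left out the values were -0.05 ± 0.24 for Hspa1b, -0.42 ± 0.3 for Hspa1a and -0.13 ± 0.23 for the sum. Over all tumors left out in turn, Hspa1a ran from -0.54 (without anti-PD-1 replicate 2) to -0.22 (without DOX/anti-PD-1 replicate 3). The inducible HSP70 pair therefore did not differ beyond its spread between tumors with and without doxorubicin.

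The 250 bases before the starts of this pair are shown because they bear on how alike the genes are. Both are from RefSeq (GRCm38.p6, minus strand), at chr17:34972157-34972406 for Hspa1a and chr17:34959239-34959488 for Hspa1b. Capitals mark the match to a heat shock element, which starts 104 bases before each gene.
Hspa1a: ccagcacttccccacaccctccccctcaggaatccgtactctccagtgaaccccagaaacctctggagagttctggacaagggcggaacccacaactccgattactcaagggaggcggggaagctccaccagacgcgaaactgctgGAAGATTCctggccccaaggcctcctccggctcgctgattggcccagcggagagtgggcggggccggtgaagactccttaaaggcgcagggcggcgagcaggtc
Hspa1b: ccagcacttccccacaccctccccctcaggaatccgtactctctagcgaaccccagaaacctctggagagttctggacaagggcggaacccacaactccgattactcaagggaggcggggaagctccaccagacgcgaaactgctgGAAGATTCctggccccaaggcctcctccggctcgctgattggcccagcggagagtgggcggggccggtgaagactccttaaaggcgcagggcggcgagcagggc

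The stretches were 98.8% identical, with 3 differences. Counted from 1 at the 5′ end, with the Hspa1a base first, these were C44T, T47C and T249G. Despite this likeness Hspa1b had the higher listed level in all 12 tumors. Reads can move between the pair, which bears on both this order and the correlation below, and was not tested. Across the 12 tumors the log2(TPM + 1) values of the pair had Pearson's r = 0.56 (permutation p = 0.06, adjusted 0.06) and Spearman's rho = 0.64 (permutation p = 0.028, adjusted 0.028). Without the 2 tumors farthest from the median of Hspa1a, r was 0.38, so the relation rests in part on those tumors. After subtraction of the group means r was 0.43. It is 1 of 2 relations computed.

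Dnajb1, the HSP40 that hands proteins to inducible HSP70 and starts its ATP cycle (chromosome 8, 83608193 to 83612653, plus strand), had the lowest mean level of the members, but not the lowest level in every tumor. It had 20.6, 11.3 and 12.4 TPM in the IgG1 tumors and 8.85, 11.4 and 14.9 TPM in the anti-PD-1 tumors. It had 10.2, 13.5 and 11.9 TPM in the DOX/IgG1 tumors and 9.83, 8.44 and 9.37 TPM in the DOX/anti-PD-1 tumors. The last group was below every DOX/IgG1 tumor, 9.83 against 10.2 TPM at the nearest, but these groups overlapped after scaling. Their difference was -0.32 ± 0.33 (limma, adjusted p = 0.99). IgG1 replicate 1 was the highest tumor, as it was for Hspa1a, Hspa1b, Hsph1 and Hspe1. Over both antibodies the doxorubicin difference was -0.27 ± 0.22 (limma, adjusted p = 0.657), -0.23 ± 0.23 without DOX/IgG1 replicate 1 and -0.16 without IgG1 replicate 1.

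The HSP90 genes encode the cytosolic chaperones that hold kinases and steroid receptors in a form ready for activation. Hsp90ab1, the constitutive form (chromosome 17, 45567775 to 45573271, minus strand), ran from 1332 TPM in DOX/anti-PD-1 replicate 3 to 2442 TPM in DOX/IgG1 replicate 1. Hsp90aa1, the more inducible form (chromosome 12, 110690605 to 110702728, minus strand), ran from 531 to 1272 TPM, and both ends were IgG1 tumors. The groups of both genes overlapped in every comparison. The doxorubicin differences over both antibodies were -0.13 ± 0.19 and -0.24 ± 0.24, with adjusted limma p of 0.83 and 0.74. When DOX/IgG1 replicate 1 was left out they were -0.22 ± 0.18 and -0.31 ± 0.26 (limma, adjusted p = 0.626 and 0.619). Over all tumors left out in turn they ran from -0.22 to -0.06 and from -0.41 to -0.13.

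Hspb1, a small heat shock protein that binds unfolded proteins without ATP (chromosome 5, 135887919 to 135889563, plus strand), had 69.8, 37.8 and 64.7 TPM in the IgG1 tumors and 58.1, 46.6 and 79.0 TPM in the anti-PD-1 tumors. It had 56.3, 49.1 and 28.3 TPM in the DOX/IgG1 tumors and 46.4, 32.1 and 13.5 TPM in the DOX/anti-PD-1 tumors. All DOX/anti-PD-1 tumors were below all anti-PD-1 tumors, 46.4 against 46.6 TPM at the nearest, while the groups under IgG1 overlapped. The log2 fold change under anti-PD-1 was -1.1 ± 0.42, past the fold limit but with an adjusted limma p of 0.533, and the exact permutation p was 0.1. Leaving out 1 tumor moved it from -1.47 (without DOX/anti-PD-1 replicate 1) to -0.62 (without DOX/anti-PD-1 replicate 3, the lowest tumor), and it was also inside the fold limit without anti-PD-1 replicate 3 (-0.9). Over both antibodies it was -0.73 ± 0.3 (adjusted p = 0.349, exact permutation p = 0.06), and -0.86 ± 0.3 without DOX/IgG1 replicate 1 (adjusted p = 0.197). The range there was -0.89 (without IgG1 replicate 2) to -0.48 (without DOX/anti-PD-1 replicate 3). The interaction, -0.73 ± 0.59 with an adjusted p of 0.993, did not show that the differences under the antibodies were unlike.

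Hspd1 and Hspe1 encode HSP60 and its lid HSP10, which form the folding chamber of the mitochondrial matrix. They lie head to head on chromosome 1, Hspd1 on the minus strand (55077835 to 55088243) and Hspe1 on the plus strand (55088132 to 55091307), and their annotated models overlap. The library kit kept the strand of the RNA, but whether reads were counted by strand was not given in the sources used here, so it is unknown whether reads in the overlap were told apart. Hspd1 had 144, 135 and 150.4 TPM in the IgG1 tumors and 165, 167 and 119 TPM in the anti-PD-1 tumors. It had 227, 102 and 111 TPM in the DOX/IgG1 tumors and 169, 149.9 and 101 TPM in the DOX/anti-PD-1 tumors. Its highest tumor, DOX/IgG1 replicate 1, stood well above the others, and all groups overlapped. Hspe1 ran from 50.1 TPM in DOX/IgG1 replicate 2 to 123 TPM in IgG1 replicate 1.

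The doxorubicin differences over both antibodies were -0.09 ± 0.2 for Hspd1 and -0.25 ± 0.21 for Hspe1 (adjusted limma p of 0.898 and 0.677). With DOX/IgG1 replicate 1 left out they were -0.25 ± 0.17 and -0.35 ± 0.22, with adjusted p of 0.525 and 0.475. Over all tumors left out in turn they ran from -0.25 to 0.01 and from -0.35 to -0.13. Their values moved together across the 12 tumors, with Pearson's r = 0.74 (permutation p = 0.0063, adjusted 0.013) and Spearman's rho = 0.76 (permutation p = 0.0055, adjusted 0.011). Without the 2 tumors farthest from the median of Hspd1, r was 0.78, and after subtraction of the group means it was 0.77. The pair thus varied together within groups as well as over all tumors.

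**Figure D3:**
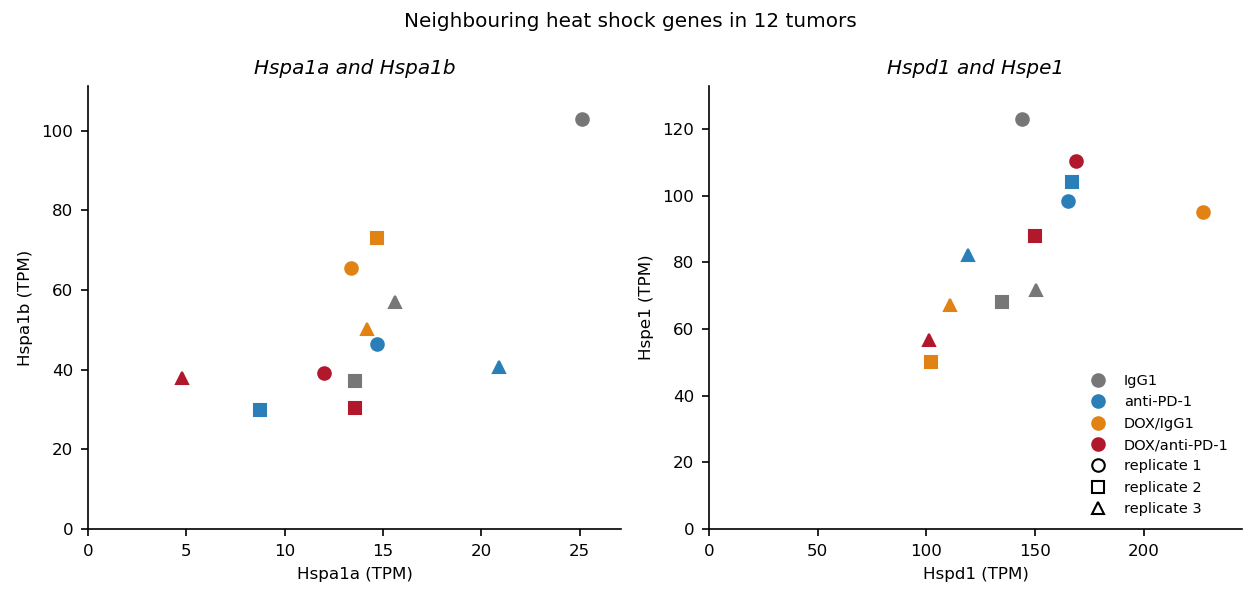
Level of Hspa1b against Hspa1a (left) and of Hspe1 against Hspd1 (right), both axes in TPM from 0, with 1 point per tumor. Colors are treatment groups and shapes are replicate numbers. The points of Hspd1 and Hspe1 lie closer to a line (r = 0.74 on the log2 scale) than those of Hspa1a and Hspa1b (r = 0.56).

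A stretch before Hspe1, inside the annotated model of Hspd1, carries the longest match to a heat shock element and is shown for that reason. These 30 bases (RefSeq, GRCm38.p6, plus strand, chr1:55088053-55088082) end 65 bases before the RefSeq start of Hspe1 and 49 bases before its GENCODE start given here, and all 30 lie in an exon of Hspd1 by GENCODE. Capitals mark 3 overlapping matches.
Hspe1: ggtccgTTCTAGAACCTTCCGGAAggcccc

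RefSeq gave upstream windows for 7 of the 10 members, 10 windows in all, with 250 bases before and 50 after each start. Hspa8, Hsp90aa1 and Hsp90ab1 had no entry. The search was for TTCNNGAA or GAANNTTC, each its own reverse complement, which covers both strands, and matches may overlap. A match in the bases before the start was found in 7 of the 10 windows, against 12.8% of all 32851 windows. Both windows of Dnajb1 and 1 of 2 windows of Hspd1 had none. The match in the other window of Hspd1 is the same stretch as that of Hspe1, and both windows of Hsph1 hold the same match. The members were chosen as targets of heat shock factors, so nothing is read from this count. The longer TTCNNGAANNTTC and its reverse complement GAANNTTCNNGAA, which contain the shorter motifs, were found in that stretch of Hspd1 and Hspe1 alone and in 0.466% of all windows. A match describes these letters and is no sign of binding.

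In the anti-PD-1 comparisons the members showed no common direction. Members called were 0 of 10 in anti-PD-1 against IgG1 (0.0% of 13692 genes), 0 of 10 for DOX/anti-PD-1 against DOX/IgG1 (0.0% of 13946 genes) and 0 of 10 over both arms (0.0% of 14735 genes). Limma gave 0, 1 and 1 members at an unadjusted p below 0.05, where 4.6%, 4.7% and 4.69% of all genes reached it (630, 655 and 691 genes). The members' medians were -0.04, -0.18 and -0.2, and those of all genes -0.03, -0.04 and -0.03. When tumors were left out singly, the members' medians ran from -0.18 to -0.01, from -0.3 to 0.05 and from -0.25 to -0.04, and 0.05 was the value without DOX/IgG1 replicate 1. These comparisons share tumors with the doxorubicin comparisons.

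Hspa1b was the member with the largest anti-PD-1 difference. Over both arms its mean was 37.5 TPM with anti-PD-1 and 64.3 TPM with IgG1, a log2 fold change of -0.71 ± 0.22. The exact permutation p within arms was 0.015, but the adjusted limma p was 0.844. For DOX/anti-PD-1 against DOX/IgG1 it was -0.78 ± 0.25 (adjusted p = 0.988). In TPM as deposited, Hspa1b and Dnajb1 were the 2 of 10 members that were lower there without overlap, as were 5.95% of all genes. There 0 members were higher without overlap, as were 4.27% of all genes. In anti-PD-1 against IgG1 the difference of Hspa1b was -0.64 ± 0.36 (adjusted p = 0.996). It was -0.25 without IgG1 replicate 1, the highest tumor, and -0.98 without IgG1 replicate 2, the lowest IgG1 tumor. Over both arms the range was -0.87 to -0.55. For the sum of Hspa1a and Hspa1b over both arms the means were 49.9 and 80.4 TPM, with -0.64 ± 0.21 (adjusted p = 0.889, exact permutation p = 0.02). In the interaction 0 of 10 members were called, against 0.00679% of 14735 genes, and 0 members reached an unadjusted p below 0.05 by limma, as 694 genes did.

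Other genes of the heat shock and chaperone system were taken from lists, and none of them was called in doxorubicin over both antibodies. Of 6 heat shock factors and regulators, 5 were tested, with a median log2 fold change of 0.03 and 3 above 0 (medians 0.33 under IgG1, with 4 tested, and -0.15 under anti-PD-1). Hsf1 had 10.6 TPM with doxorubicin and 7.12 TPM without it, a difference of 0.49 ± 0.23 (adjusted limma p = 0.433, exact permutation p = 0.025). It was 0.24 ± 0.38 under IgG1 and 0.73 ± 0.31, without overlap, under anti-PD-1, where 11.1% of all genes were higher without overlap. Hsf2 stood at 0.03 ± 0.25 and -0.07 after scaling, which joins 0.43 under IgG1 and -0.37 under anti-PD-1, and Hsbp1, which binds the factor's trimers, at -0.15 ± 0.26. When DOX/IgG1 replicate 1 was left out, the values under IgG1 were 0.02 ± 0.38 for Hsf1 and 0.17 ± 0.37 for Hsf2. Hsf1 and Hsph1 thus had differences of opposite sign, and neither passed the limits.

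Of 9 small heat shock proteins 7 were tested, with a median of -0.09 and 4 below 0 (medians -0.49 under IgG1 and -0.28 under anti-PD-1, with 4 tested in each). Cryab, a partner of Hspb1 abundant in muscle and lens, had 31.0 TPM with doxorubicin and 11.8 TPM without it (1.23 ± 0.54, limma, adjusted p = 0.382). This was 2.02 ± 0.58 under IgG1, higher without overlap as were 9.31% of all genes, and 0.44 ± 0.73 under anti-PD-1, with overlap. The value over both antibodies fell inside the fold limit (0.96) without IgG1 replicate 3. Hspb11, which is also part of the transport machinery of cilia, had 3.4 and 7.07 TPM (-1.26 ± 0.53, adjusted p = 0.362). It was listed at 0 in 2 tumors, DOX/IgG1 replicate 1 and DOX/anti-PD-1 replicate 3, and its value ran from -2.35 with a pseudocount of 0.1 TPM to -0.87 ± 0.46 without DOX/IgG1 replicate 1. Hspb8 stood at 0.05 ± 0.27, or -0.05 after scaling, which joins -0.4 under IgG1 and 0.5 under anti-PD-1. In the latter it was higher without overlap, as were 11.1% of all genes. Cryaa, a lens crystallin, was listed at 0 in every tumor.

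Of 7 other cytosolic HSP70 and HSP110 genes 6 were tested, with a median of 0.3 and 4 above 0 (medians 0.24 under IgG1 and -0.01 under anti-PD-1, with 5 tested in the latter). Hspa4, like Hsph1 an HSP110 protein, stood at -0.29 ± 0.2, and Hspa14 at 0.64 ± 0.25 (limma, adjusted p = 0.591 and 0.341). Leaving out 1 tumor moved Hspa4 between -0.4 and -0.17. Of 11 other cytosolic HSP40 genes, all tested, the median was 0.13 and 3 were below 0 (medians 0.12 under IgG1 and -0.01 under anti-PD-1). Dnaja1, a main HSP40 partner of Hspa8, ran from 85.4 to 192 TPM with doxorubicin and from 155 to 244 TPM without it. Its difference was -0.53 ± 0.31 under IgG1 and -0.79 ± 0.23 under anti-PD-1. Over both antibodies it was -0.66 ± 0.2 (adjusted p = 0.225, exact permutation p = 0.01), and -0.81 ± 0.17 without DOX/IgG1 replicate 1 (adjusted p = 0.0565), with 0.0565 to 0.377 over all alternatives. Dnajb6 stood at -0.24 ± 0.14 and Dnajc7 at 0.06 ± 0.18, or -0.05 after scaling.

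Of 23 cochaperones of HSP70 and HSP90 the median was -0.08, with 15 below 0 (medians -0.04 under IgG1 and 0.02 under anti-PD-1). St13, which binds HSP70, stood at -0.41 ± 0.16 (limma, adjusted p = 0.341) and Ptges3, the p23 partner of HSP90, at 0.04 ± 0.16, or -0.07 after scaling. Of 14 other mitochondrial chaperones and proteases the median was -0.02, with 7 below 0 (medians -0.11 under IgG1 and -0.01 under anti-PD-1). Hspa9, the HSP70 of the matrix, stood at 0.07 ± 0.14 and Yme1l1 at 0.01 ± 0.18, or -0.04 and -0.1 after scaling, and Grpel2 at 0.32 ± 0.21. Hspa9 had -0.06 under IgG1 and 0.21 under anti-PD-1, and Yme1l1 had 0.2 and -0.18. Of 15 CCT chaperonin and prefoldin genes 14 were listed, Cct6a not by this symbol, and 13 were tested. Their median was -0.11 with 7 below 0 (medians -0.07 under IgG1 and 0.02 under anti-PD-1). Tcp1 stood at 0.24 ± 0.2, Cct5 at -0.33 ± 0.18 and Pfdn5 at -0.41 ± 0.19. Leaving out 1 tumor moved Tcp1 between 0.13 and 0.32.

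The chaperones of the ER were the list with the lowest median. All 17 were tested and all 17 had negative values over both antibodies, with a median of -0.54. At an unadjusted p below 0.05 by limma there were 8, where 11.98% of all genes reached it. Under IgG1 there were 10 and under anti-PD-1 1, where 7.73% and 8.63% of all genes reached it. The median was -0.78 under IgG1 and -0.32 under anti-PD-1, with 16 and 14 of 17 below 0. Dnajb9, an HSP40 that serves the ER HSP70, had 77.4 TPM with doxorubicin and 133 TPM without it (-0.81 ± 0.21, adjusted p = 0.206, exact permutation p = 0.01). It was -0.51 ± 0.25 under IgG1 and -1.1 ± 0.31 under anti-PD-1. Over both antibodies it was -0.92 ± 0.2 with an adjusted p of 0.0599 when DOX/IgG1 replicate 1 was left out, in a range of 0.0599 to 0.339 over all alternatives. Calr stood at -0.58 ± 0.28 and Hsp90b1 at -0.41 ± 0.23 (adjusted p = 0.426 and 0.513). Under IgG1 they had -0.85 and -0.62, and under anti-PD-1 -0.32 and -0.2. Over both antibodies Hsp90b1 ran from -0.51 to -0.26 when tumors were left out in turn. The cytosolic and mitochondrial members thus had a median between those of the ER list and of all genes.

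**Figure D4:**
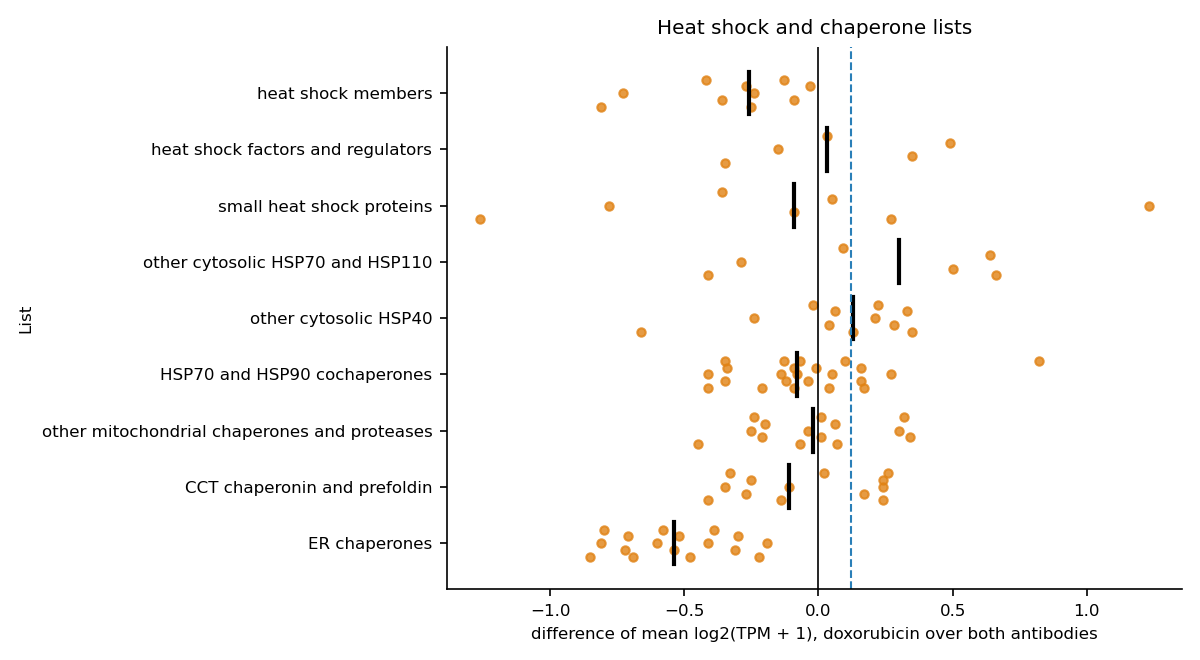
Difference of mean log2(TPM + 1) for doxorubicin over both antibodies (x axis) of each tested gene (points, spread vertically only to part them) in 9 lists (y axis). Black bars are list medians and the dashed line is the median of all genes, 0.12. The bar of the heat shock members is at -0.26 and that of the ER chaperones at -0.54, where all 17 points are below 0.

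Markers of other cells are given by their sums in each tumor, and their part in the results was not tested. In doxorubicin over both antibodies 0 genes of the adipocyte, basal, fibroblast and luminal lists were called. The sums of tumors with and without doxorubicin overlapped in each list, as they did under IgG1 alone. Under anti-PD-1 alone only the luminal sums overlapped. All DOX/anti-PD-1 tumors were above all anti-PD-1 tumors in the adipocyte, basal and fibroblast sums, as they were for 11.1% of all genes taken singly. In these lists 5, 3 and 4 genes were higher there at an unadjusted p below 0.05 by limma, where 8.63% of all genes reached it. The 7 adipocyte markers summed to 149.6, 406 and 457 TPM in IgG1, 230.1, 161 and 254 TPM in anti-PD-1, 238, 1238 and 289.8 TPM in DOX/IgG1 and 1055, 321 and 486 TPM in those with DOX/anti-PD-1. The 7 basal and myoepithelial markers summed to 369, 156 and 339.8, then 169, 266 and 255, then 217, 545 and 782, then 325, 405 and 469 TPM in the same order. All 7 genes of either list had positive values for doxorubicin over both antibodies, with medians of 0.97 and 0.45, and the highest sums were in tumors with doxorubicin. The adipocyte median was 0.43 under IgG1, with 6 of 7 above 0, and 1.47 under anti-PD-1, with 7 of 7 above 0. The basal median was 0.31 under IgG1 and 0.47 under anti-PD-1. The 7 fibroblast markers summed to 1271, 1185 and 1868, then 971, 889 and 726, then 587, 1914 and 1392, then 1088, 1472 and 1639 TPM, with a median of 0.28 (0.43 under IgG1 and 0.6 under anti-PD-1). Its most abundant gene, Col1a1, had -1.2 under IgG1, lower without overlap as were 4.64% of all genes, and 0.97 under anti-PD-1. The 12 luminal markers summed to 4500.2, 3197 and 4013, then 3598, 3518 and 3139.8, then 2503, 3836 and 4295, then 3937, 3726 and 2806 TPM, with a median of -0.13 (-0.23 under IgG1 and 0.03 under anti-PD-1). Of these 12 genes, 3 were higher and 3 lower at an unadjusted p below 0.05 by limma over both antibodies. Epcam, the most abundant, had 605 TPM with doxorubicin and 853 TPM without it, a difference of -0.54 ± 0.2 (limma, adjusted p = 0.319, exact permutation p = 0.035). Under IgG1 it was lower without overlap (-0.87 ± 0.23, limma, adjusted p = 0.469), as were 4.64% of all genes. Under anti-PD-1 the groups overlapped (-0.21 ± 0.3). DOX/IgG1 replicate 1 had the lowest fibroblast and luminal sums of all 12 tumors. The most abundant genes of these lists were Car3, Acta2, Col1a1 and Epcam, and none of their markers was at 0 in every tumor.

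The other lists are given by their medians for doxorubicin over both antibodies and the range of their sums. The 18 immediate early genes had a median of 0.24 (0.31 under IgG1, with 17 tested, and 0.2 under anti-PD-1) and sums of 404 to 624 TPM without and 479 to 1082 TPM with doxorubicin, led by Fos. The 12 proliferation genes had a median of -0.11, with sums of 525 to 795 and 295 to 896 TPM, led by Pcna. That median joins opposite directions: it was -0.59 in DOX/IgG1 against IgG1, with 11 of 12 genes below 0, and 0.26 in DOX/anti-PD-1 against anti-PD-1, with 8 of 12 above 0. Pcna itself had 0.35 and -0.01. The part of these genes in the members' differences was not tested. The 16 leukocyte markers, 13 of them tested, had a median of 0.18 (0.18 under IgG1 and 0.25 under anti-PD-1) and sums of 326 to 562 and 292 to 629.7 TPM, led by Lyz2. In these lists the range with doxorubicin overlapped that without over both antibodies. Under anti-PD-1 alone the immediate early gene sums did not overlap, where 11.1% of all genes taken singly were higher without overlap. These sums were 404, 413 and 476 TPM in the anti-PD-1 tumors and 559, 479 and 723 TPM in the DOX/anti-PD-1 tumors. The 13 skeletal muscle genes had a median of -0.12 (-0.43 under IgG1 and 0.07 under anti-PD-1) and sums from 9.42 to 1451 TPM, led by Acta1, and the 6 endothelial markers a median of 0.08 (-0.1 under IgG1 and 0.19 under anti-PD-1) and sums from 75.7 to 161 TPM, led by Pecam1. Of 7 genes of a salivary type 6 were listed, Muc19 not by this symbol, and 5 were tested, with a median of 1.37 and sums from 130.2 to 568 TPM. This median too joins opposite directions: it was 1.88 under IgG1, with 4 of 5 above 0 and 2 called higher, and -0.55 under anti-PD-1, with 1 of 3 above 0 and 0 called. In the interaction 1 gene was called lower. Aqp5, the most abundant, was lower with doxorubicin (-0.7 ± 0.27, limma, adjusted p = 0.331).

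Among 11289 other genes with 1 TPM or more in every tumor, those whose log2(TPM + 1) was most like summed Hspa1a and Hspa1b over the 12 tumors were Ttc28 (r = 0.84), Ppl (0.8), Cherp (0.79), Klf5 (0.79) and Fbln2 (0.78). Of the other members, Dnajb1 had r = 0.73, at rank 19, and Hsp90aa1 had the lowest value, -0.37. Most like the mean of Hspd1 and Hspe1 were Ndufb4 (r = 0.9), Dpy30 (0.9), Kntc1 (0.89), Cit (0.88) and Hist1h1a (0.88). Here Hsp90ab1 was the nearest member with r = 0.73, at rank 113. These are descriptions of the most alike among many genes, and the tumors share their groups.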

How the data were processed

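The authors trimmed reads with skewer, used STAR for alignment (mm10) and RSEM for gene quantification, in versions not given in the sources used here. The authors deposited log2(TPM + 1) per gene for 12 tumors, with decimal commas. TPM was taken from the study's methods, as the values alone cannot tell it from FPKM. As the files hold no read counts, the study's plan of a count test was replaced by limma 3.58.1 (R 4.3.3, lmFit and eBayes with trend), two-sided with Benjamini-Hochberg adjustment over all genes tested. Single members were also compared by exact permutation of the tumors. Correlations used 100000 resamples. Python 3.11.15, scipy 1.17.1 and pandas 2.3.3 were used, with GENCODE vM21 for positions.

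The members and lists were chosen with earlier results of these data known. Named genes were all members and, per chaperone list, the 2 most abundant and the gene with the largest limma statistic for doxorubicin, and per cell list the most abundant. Likeness named 5 genes per pattern. Replicate numbers name no shared mouse, so tumors were unpaired. Alternatives were a pseudocount of 0.1 TPM, other filters, scaling, a replicate block, other tumors in the fit, no fold limit, and each tumor left out. The joint removal of DOX/IgG1 replicate 1 and the fold limit was added after the values were seen.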

Additional observations from a re-analysis of the deposited data

How the results depend on the processing

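Over 111 counts of members called, made in 7 comparisons with up to 7 other settings, with each of 12 tumors left out in turn and with 1 setting added later, 110 were 0. The exception was the setting added after the values were seen, without DOX/IgG1 replicate 1 and with no limit on the fold change, in which 1 member (Hsph1) passed in doxorubicin over both antibodies. Of 1089 log2 fold changes of the members and of summed Hspa1a and Hspa1b under the other alternatives, 1010 kept their sign and stayed uncalled, 79 had the other sign and 0 were called. Single limits were crossed: 6 values moved across the fold limit, for Hspb1 and Hsph1 in DOX/anti-PD-1 against anti-PD-1 and for Hspb1 in the interaction, and 1 across the limit on adjusted p, for Hsph1 in doxorubicin over both antibodies. Results that turned had absolute values of at most 0.31 with all tumors and the main settings and at most 0.36 after turning, and the cause was not tested. No read counts were analysed, so counting error is unknown, and 3 tumors a group limit every test.

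Genes called among all tested moved more. In DOX/IgG1 against IgG1 they were 2 with 1 TPM in every tumor, and 0 to 113 when each tumor was left out. For DOX/anti-PD-1 against DOX/IgG1 they were 3 with scaling and 2 with all 12 tumors in 1 fit. In doxorubicin over both antibodies they were 14 with 1 TPM in every tumor, 14 with scaling, and 0 to 211 when each tumor was left out. In the interaction they were 0 with a pseudocount of 0.1 TPM, 3 with no filter, 0 with 1 TPM in every tumor and 0 with scaling. Leaving out each tumor gave 0 to 4 in DOX/anti-PD-1 against anti-PD-1, 0 to 4 in anti-PD-1 against IgG1, 0 to 3 for DOX/anti-PD-1 against DOX/IgG1 and 0 to 1 in the interaction. Without DOX/IgG1 replicate 1 and with no limit on the fold change, they were 113 in DOX/IgG1 against IgG1, 3 for DOX/anti-PD-1 against DOX/IgG1, 297 in doxorubicin over both antibodies and 0 in the interaction. The cause was not tested.

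With the replicate number as a block, members called were 0 in all 7 comparisons. Genes called were 2 in DOX/IgG1 against IgG1, 1 in doxorubicin over both antibodies and 0 in the interaction. The numbers do not pair the tumors: deviations from group means had correlations of -0.096 to 0.134 (median 0.017) between 18 pairs with the same number, 4 of them above 0.1, and -0.19 to 0.113 between 36 other pairs.

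Scaling by the median of ratios turned the sign of Hspa1b in DOX/IgG1 against IgG1 (-0.06) and of Hspd1 for DOX/anti-PD-1 against DOX/IgG1 (0.02). In doxorubicin over both antibodies it turned Hsf2 (-0.07), Hspb8 (-0.05), Dnajc7 (-0.05), Ptges3 (-0.07), Hspa9 (-0.04) and Yme1l1 (-0.1). When each tumor was left out in turn, the following log2 fold changes took both signs, with lowest and highest values given. In DOX/IgG1 against IgG1 these were Hspa1b (-0.3 to 0.43), Hsp90ab1 (-0.31 to 0.01), Hspd1 (-0.42 to 0.15) and Hspa1a + Hspa1b (-0.33 to 0.33). In DOX/anti-PD-1 against anti-PD-1 these were Hspa1b (-0.28 to 0.03), Hsp90aa1 (-0.43 to 0.01), Hsp90ab1 (-0.24 to 0.01), Hspd1 (-0.28 to 0.09) and Hspe1 (-0.42 to 0.06). In anti-PD-1 against IgG1 these were Hspa1a (-0.58 to 0.0), Hspb1 (-0.16 to 0.28), Hsp90aa1 (-0.35 to 0.28) and Hspd1 (-0.02 to 0.22). For DOX/anti-PD-1 against DOX/IgG1 these were Hsph1 (-0.2 to 0.46), Hspa8 (-0.33 to 0.07), Hsp90aa1 (-0.13 to 0.3), Hsp90ab1 (-0.29 to 0.03) and Hspd1 (-0.21 to 0.36). In doxorubicin over both antibodies these were Hspa1b (-0.19 to 0.13), Hspd1 (-0.25 to 0.01), Hspa1a + Hspa1b (-0.26 to 0.04), Hsbp1 (-0.3 to 0.03), Hsf2 (-0.13 to 0.15), Hspb8 (-0.07 to 0.28), Dnajc7 (-0.05 to 0.16), Ptges3 (-0.04 to 0.13) and Yme1l1 (-0.12 to 0.1). In anti-PD-1 over both arms these were Hsph1 (-0.02 to 0.27), Hsp90aa1 (-0.12 to 0.16) and Hspd1 (-0.06 to 0.19). In the interaction these were Hspa1a (-0.55 to 0.17), Hspa1b (-0.53 to 0.2), Hsph1 (-0.32 to 0.34), Dnajb1 (-0.28 to 0.14), Hspa8 (-0.02 to 0.39), Hsp90aa1 (-0.21 to 0.42), Hsp90ab1 (-0.16 to 0.17), Hspd1 (-0.27 to 0.3), Hspe1 (-0.17 to 0.36) and Hspa1a + Hspa1b (-0.52 to 0.14).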
